A study of Mus musculus with 8 samples.

Results

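Acta2, Myh11, Tagln, Cnn1, Mylk, Myl9, Rgs5 and Pdgfrb, 8 genes used to recognise smooth muscle cells and pericytes, were read in mouse tongue RNA. They were taken by name from a table of 19857 genes, as a list drawn up with earlier results of these data known. All 8 were found in the table, and 6 had enough counts for the test across genes. The tongues came from female mice aged 12 months. WT mice (n = 4) are wild type, and A17/+ mice (n = 4) carry 1 copy of the A17 allele of Pabpn1, the gene of a nuclear protein that binds poly(A) tails and whose expanded alanine stretch causes oculopharyngeal muscular dystrophy. The libraries of a genotype were separate animals per the labels, and how the allele was made is not given in the sources used here. Each library was made by mcSCRB-seq, which counts the 3′ ends of polyadenylated RNA by unique molecular identifiers (UMIs), from sections cut through the middle part of the tongue. The RNA is from whole tissue, so fewer or more cells of a type and less or more RNA per cell cannot be told apart.

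Smooth muscle cells lie in the walls of arteries, veins and some ducts, and pericytes sit on the outside of capillaries. Smooth muscle contracts when calcium and calmodulin switch on myosin light chain kinase, which phosphorylates the light chain of smooth muscle myosin and lets it pull on actin. Many genes of this apparatus are switched on by SRF with its partner myocardin at a DNA element called the CArG box. Pericytes depend on PDGF-B from the endothelium, which they sense through the receptor Pdgfrb.

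The WT libraries held 205696 to 465014 UMIs and the A17/+ libraries 395061 to 485326. The 8 genes together gave 203 to 536 UMIs per WT library and 387 to 516 per A17/+ library. WT 1 and A17/+ 1 were each other's nearest library across all tested genes (Pearson r of log2 CPM 0.927), while each of the other 6 was nearest to a library of its own genotype. Mitochondrial transcripts made up 4.17% to 6.43% of the UMIs in WT and 7.24% to 11.0% in A17/+. Genes with transcripts under 1000 nt took 3.95% to 6.03% in WT and 5.82% to 7.96% in A17/+. Pabpn1 itself stood at 12.9 to 33.4 CPM in WT and 14.1 to 31.4 in A17/+, and a 3′ count does not read the changed stretch, so it does not check the genotype.

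The promoter sequences below are those of Acta2, Myl9 and Rgs5, which had the largest fold changes among the members that were both tested and given a promoter sequence, and they were searched for the CArG box. They cover 250 bases before the RefSeq start in GRCm38.p6, the build also called mm10, and are credited to RefSeq, which gave such a sequence for 5 of the 8 genes (Acta2, Cnn1, Myl9, Mylk and Rgs5). The motifs searched were the CArG box, which is CC and GG around 6 letters that are each A or T, and a CArG-like run in which 1 of those 6 letters is another base. The pattern reads the same on both strands. Capitals mark the matches. The Acta2 stretch is chr19:34255374-34255623 on the minus strand, the Myl9 stretch is chr2:156775214-156775463 on the plus strand and the Rgs5 stretch is chr1:169655251-169655500 on the plus strand.
Acta2: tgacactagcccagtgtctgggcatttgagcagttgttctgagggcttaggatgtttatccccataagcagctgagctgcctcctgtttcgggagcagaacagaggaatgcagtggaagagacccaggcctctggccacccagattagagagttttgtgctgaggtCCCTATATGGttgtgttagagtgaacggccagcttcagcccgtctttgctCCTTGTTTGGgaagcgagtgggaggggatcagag
Myl9: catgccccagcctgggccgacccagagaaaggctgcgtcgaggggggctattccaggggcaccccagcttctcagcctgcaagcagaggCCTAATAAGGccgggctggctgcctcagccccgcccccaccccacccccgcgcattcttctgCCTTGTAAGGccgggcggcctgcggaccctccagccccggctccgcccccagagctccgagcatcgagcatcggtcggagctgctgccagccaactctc
Rgs5: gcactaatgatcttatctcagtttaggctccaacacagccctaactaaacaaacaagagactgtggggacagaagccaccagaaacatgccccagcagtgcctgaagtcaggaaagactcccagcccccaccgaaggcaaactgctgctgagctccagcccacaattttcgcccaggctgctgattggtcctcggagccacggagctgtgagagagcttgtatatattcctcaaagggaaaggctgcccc
Acta2 held CArG-like runs at -84 to -75 and at -34 to -25 from the start. Myl9 held a CArG box at -161 to -152 and a CArG-like run at -99 to -90. Rgs5, Cnn1 and Mylk held no match in these windows. The Mylk window, chr16:34784700-34784949, lies inside the annotated gene, so the stretch before the gene's annotated start was not searched. The Acta2, Myl9 and Cnn1 windows also overlap their annotated genes. Of 32544 promoters of the same length, 1.48% held a CArG box and 8.59% held a box or a CArG-like run. A match is a description of the letters and not a site of binding.

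Acta2 was the 1 gene of the 8 that rose in A17/+ tongue past the test. None of the 6 tested genes fell past it, nor with DESeq2 or limma-voom. Over all 5066 tested genes, 6.34% were called higher and 2.61% lower, the background against which 1 higher call among 6 stands. The test was the quasi-likelihood test of edgeR, with p-values adjusted over all tested genes by Benjamini and Hochberg and a threshold of 0.05. Two-sided unadjusted p-values under 0.05 were reached by 2 of the 6 members, Acta2 and Rgs5, and by 1273 of all tested genes. The log2 fold change of A17/+ against WT was above 0 for 4 of the 6, with a median of 0.31 against 0.01 over all tested genes. All 4 A17/+ values lay above all 4 WT values for 1 member, against 8.57% of all tested genes, and for no member did they lie below, against 6.08%. The plot of CPM by library shows these values for each of the 8 genes.

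**Figure D1:**
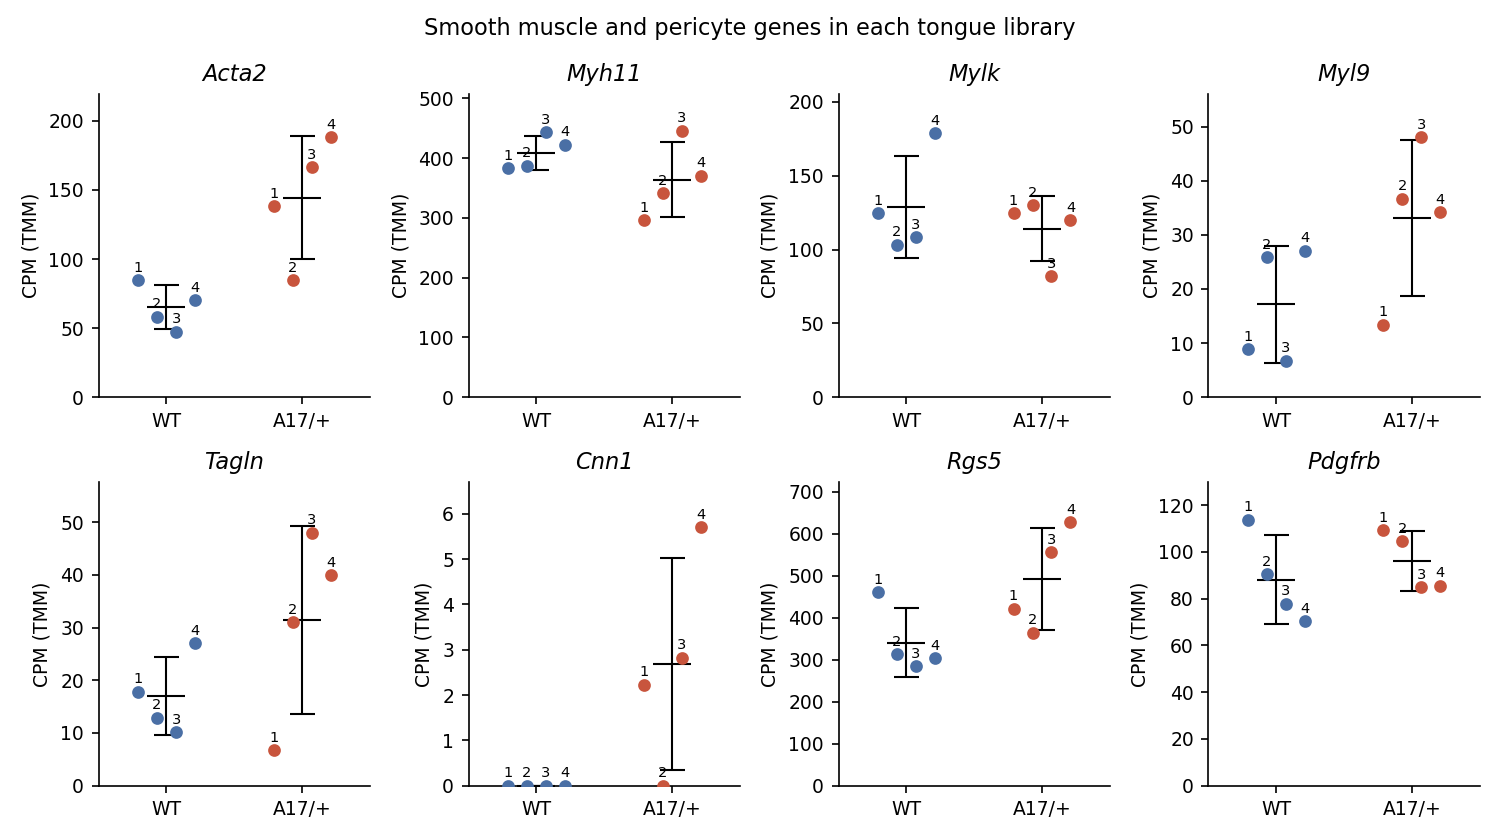
Level of each of the 8 genes in each library, as CPM with TMM scaling (linear axes from 0; the scale differs between panels). Points are single tongues numbered as in the labels, blue for WT and red for A17/+, the horizontal line is the mean and the bars are 1 SD (n = 4 per genotype). Acta2 runs from 47.4 to 84.7 in WT and from 84.7 to 188 in A17/+, while Myh11, Mylk and Pdgfrb overlap throughout.

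Among the contractile proteins, Acta2 encodes smooth muscle alpha-actin, which myofibroblasts also make. The gene (ENSMUSG00000035783) lies at chr19:34241090-34255590 on the minus strand, and its longest annotated transcript has 2035 nt. WT libraries 1 to 4 held 38, 18, 14 and 13 Acta2 UMIs, and A17/+ libraries 1 to 4 held 62, 30, 59 and 66. As CPM (counts of a gene scaled to the library's counts of tested genes, with TMM scaling) these were 84.7, 58.2, 47.4 and 70.4 in WT and 138, 84.7, 167 and 188 in A17/+. WT 1 was the highest of its group and A17/+ 2 the lowest of its own, and these neighbours were all but equal, at 84.69 and 84.73 CPM. The mean rose from 65.2 ± 16.1 (SD, n = 4) to 144 ± 44.8 (SD, n = 4). The log2 fold change was 1.13 (SE 0.28, 95% interval 0.54 to 1.71), which is 2.19-fold (1.46 to 3.28), with an adjusted p of 0.0169 by edgeR. An exact permutation test of the CPM over the 70 assignments of the libraries gave a two-sided p of 0.0286. That is the smallest that 4 against 4 allows, and it is reached only where the genotypes do not overlap. Here this rests on the neighbouring values of 84.69 and 84.73 CPM.

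The separation of the Acta2 values, and with it the smallest permutation p, held under 1 of the 8 ways of scaling that were tried. With library sizes taken over all counts, for example, the highest WT value was 78.9 and the lowest A17/+ value 75.9. The call was lost with limma-voom (log2 fold change 1.08, adjusted p 0.0515), after removal of a transcript length trend (0.85, 0.0683), and without WT 2 (1.04, 0.0662), WT 3 (0.98, 0.0759), A17/+ 3 (1.06, 0.0600) or A17/+ 4 (0.96, 0.0767). The direction was the same in all 22 alternatives. The protein that Acta2 encodes is nearly identical to that of Acta1, the actin of skeletal muscle. Acta1 rose from 1156 ± 106 to 3719 ± 1257 CPM (edgeR log2 fold change 1.68, adjusted p 0.00187). How reads that match both genes, if any, were counted is not given in the sources used here, and the part of such reads in the Acta2 difference was not tested.

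Myh11 encodes the myosin heavy chain of smooth muscle, a motor protein found almost wholly in that tissue. It lies at chr16:14194535-14291372 on the minus strand (ENSMUSG00000018830, longest transcript 6549 nt). Its levels were 383, 388, 443 and 423 CPM in WT 1 to 4 and 297, 342, 446 and 371 CPM in A17/+ 1 to 4. The highest and the lowest of the 8 values were both from A17/+, so the WT values sat inside the A17/+ range. The means were 409 ± 28.7 in WT and 364 ± 62.9 in A17/+ (SD, n = 4 each), a log2 fold change of -0.17 (SE 0.17, 95% interval -0.52 to 0.18; edgeR adjusted p 0.564). The interval as a fold is 0.698 to 1.13, so a rise of the size measured for Acta2 lies outside it.

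Tagln encodes transgelin, a small protein that binds actin filaments and is abundant in smooth muscle. It lies at chr9:45929619-45936058 on the minus strand (ENSMUSG00000032085) and stayed below the count filter, with 8, 4, 3 and 5 UMIs in WT and 3, 11, 17 and 14 in A17/+. As CPM these were 17.8, 12.9, 10.2 and 27.1 in WT and 6.69, 31.1, 48.0 and 39.9 in A17/+. The libraries A17/+ 2, 3 and 4 stood above every WT library, and A17/+ 1 stood below every WT library. The means were 17 ± 7.44 and 31.4 ± 17.9 CPM (SD, n = 4 each), and the two-sided exact permutation p was 0.2. Pcsk7 and Gm48529 overlap exons of Tagln on the opposite strand, with 104 and 16 UMIs over the 8 libraries, and whether the counting used strand is not given in the sources used here.

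Cnn1 encodes calponin, which binds actin and holds back the myosin motor in differentiated smooth muscle. It lies at chr9:22099216-22109630 on the plus strand (ENSMUSG00000001349). No UMI was counted in the 4 WT libraries, and 1, 0, 1 and 2 were counted in A17/+ 1 to 4. A count of 0 among 1282497 WT UMIs allows a level of up to 2.34 CPM of all UMIs (3 counts over the group, an upper limit only). The upper end of the 95% exact Poisson interval for WT is 2.88 CPM. The 4 UMIs among 1721314 in A17/+ were 2.32 CPM (95% exact Poisson interval 0.633 to 5.95, counting error only), so a difference in Cnn1 lay below what this depth can show. The exact permutation p was 0.143.

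Mylk and Myl9 are the kinase and its substrate. Mylk encodes myosin light chain kinase and lies at chr16:34745210-35002420 on the plus strand (ENSMUSG00000022836, longest transcript 7824 nt). Its levels were 125, 103, 108 and 179 CPM in WT 1 to 4 and 125, 130, 81.9 and 120 CPM in A17/+ 1 to 4. The extremes were WT 4 at the top and A17/+ 3 at the bottom, and the remaining 6 values lay within 103 to 130 CPM in both genotypes together. The means were 129 ± 34.5 and 114 ± 21.9 (SD, n = 4 each), a log2 fold change of -0.15 (SE 0.24, 95% interval -0.65 to 0.36; edgeR adjusted p 0.753). Antisense genes also overlap exons of Mylk, and those present in the table, E130310I04Rik and Gm21691, had 2 and 1 UMIs in all.

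Myl9 encodes the regulatory light chain that the kinase phosphorylates, and its longest transcript, 1128 nt, is the shortest of the 8. It lies at chr2:156775420-156781658 on the plus strand (ENSMUSG00000067818). It had 4, 8, 2 and 5 UMIs in WT and 6, 13, 17 and 12 in A17/+. These were 8.92, 25.9, 6.77 and 27.1 CPM in WT and 13.4, 36.7, 48.0 and 34.2 CPM in A17/+. As with Tagln, A17/+ 2, 3 and 4 stood above every WT library, while A17/+ 1 fell among them. The means were 17.2 ± 10.8 and 33.1 ± 14.5 (SD, n = 4 each), with a log2 fold change of 1.03 (SE 0.51) and an edgeR adjusted p of 0.208. The point estimate of 2.04-fold was near that of Acta2, and its 95% interval ran from 0.973-fold to 4.28-fold. After removal of the transcript length trend the log2 fold change was 0.17.

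Rgs5 and Pdgfrb are the pericyte genes of the set. Rgs5 encodes a protein that shortens G protein signalling and is a marker of pericytes. It lies at chr1:169655501-169695813 on the plus strand (ENSMUSG00000026678, longest transcript 4096 nt). WT 1 to 4 had 207, 97, 84 and 56 Rgs5 UMIs, and A17/+ 1 to 4 had 189, 129, 197 and 220. The levels were 461, 314, 284 and 303 CPM in WT and 421, 364, 557 and 627 CPM in A17/+. WT 1 stood above A17/+ 1 and A17/+ 2, and the other 3 WT libraries stood below all A17/+ libraries. The means were 341 ± 81.4 and 492 ± 121 (SD, n = 4 each). The log2 fold change of 0.52 (SE 0.20, 95% interval 0.09 to 0.95) is 1.43-fold (1.06 to 1.93), with an unadjusted p of 0.0215 and an adjusted p of 0.122 by edgeR, and the exact permutation p was 0.0857. The value passed the threshold without WT 1 (0.68, adjusted p 0.0299), without A17/+ 2 (0.63, 0.0492) and without both libraries numbered 1 (0.78, 0.0108), and in none of the other 19 alternatives.

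Pdgfrb encodes the receptor through which pericytes are recruited to new vessels, and fibroblasts express it too. It lies at chr18:61045150-61085061 on the plus strand (ENSMUSG00000024620, longest transcript 5423 nt). Its levels were 114, 90.5, 77.8 and 70.4 CPM in WT 1 to 4 and 109, 105, 84.8 and 85.5 CPM in A17/+ 1 to 4. The WT values spanned the whole A17/+ range. The means were 88.1 ± 18.9 and 96.0 ± 12.7 (SD, n = 4 each), a log2 fold change of 0.10 (SE 0.23, 95% interval -0.39 to 0.58; edgeR adjusted p 0.845). Its sign turned with scaling by library totals only, where the log2 fold change was -0.03 and the median over all tested genes was -0.11.

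**Figure D2:**
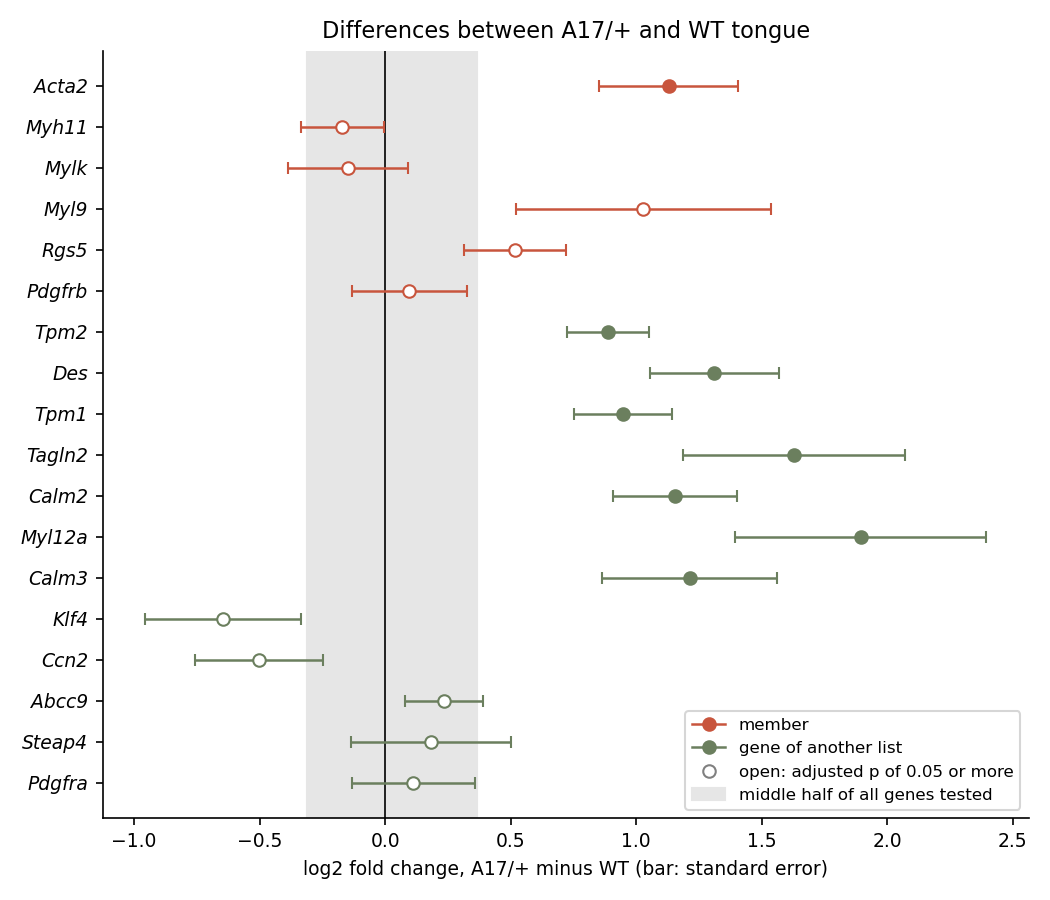
Log2 fold change of A17/+ against WT for the 6 members that were tested (red) and for genes of 5 related lists (green), with bars of 1 SE. Filled points passed an adjusted p of 0.05 by edgeR, and the grey band holds the middle part of all tested genes, from -0.31 to 0.36. Acta2 is the filled point among the members, and Myh11, Mylk and Pdgfrb have their points inside the band.

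The members did not move as 1 block from library to library. Over the 8 libraries, Acta2 and Rgs5 had a Pearson r of 0.93 and a Spearman coefficient of 0.91 between their log2 CPM values. As deviations from the genotype means r was 0.89, and without both libraries numbered 1 it was 0.98. The other pair above 0.5 among the 15 pairs of tested members was Acta2 with Myl9 (r 0.51, Spearman 0.64), whose deviations from the genotype means gave 0.10. The strongest negative pair was Myh11 with Pdgfrb, at r -0.73 and a Spearman coefficient of -0.71. Each r describes 8 points that share depth, composition and genotype.

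Ratios of counts within a library do not depend on library scaling, but they are not corrected for transcript length. The longest transcripts have 2035 nt for Acta2 and 6549 nt for Myh11. With the transcript length trend removed, the edgeR log2 fold changes were 0.85 for Acta2 and -0.12 for Myh11, against 1.13 and -0.17 as reported. The part of length in the ratios was not tested. The ratios named here were chosen after the values were seen, so they are given with no test. Acta2 had 0.221, 0.150, 0.107 and 0.167 UMIs per Myh11 UMI in WT 1 to 4, against 0.466, 0.248, 0.373 and 0.508 in A17/+ 1 to 4. The genotypes did not overlap, and the geometric means differed 2.47-fold. Per Rgs5 UMI, Acta2 had 0.184, 0.186, 0.167 and 0.232 in WT and 0.328, 0.233, 0.299 and 0.300 in A17/+, a 1.51-fold difference. WT 4 and A17/+ 2 were all but equal in that ratio. The Acta2 to Myh11 and Acta2 to Rgs5 ratios share Acta2, so their separations are not independent. Among single tested genes, 8.57% had all 4 A17/+ values above all 4 WT values and 6.08% had them below. The other 13 of the 15 ratios overlapped between genotypes. The Acta2 to Myl9 ratio was among these, with means of 5.34 ± 3.52 in WT and 5.40 ± 3.54 in A17/+ (SD, n = 4 each).

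**Figure D3:**
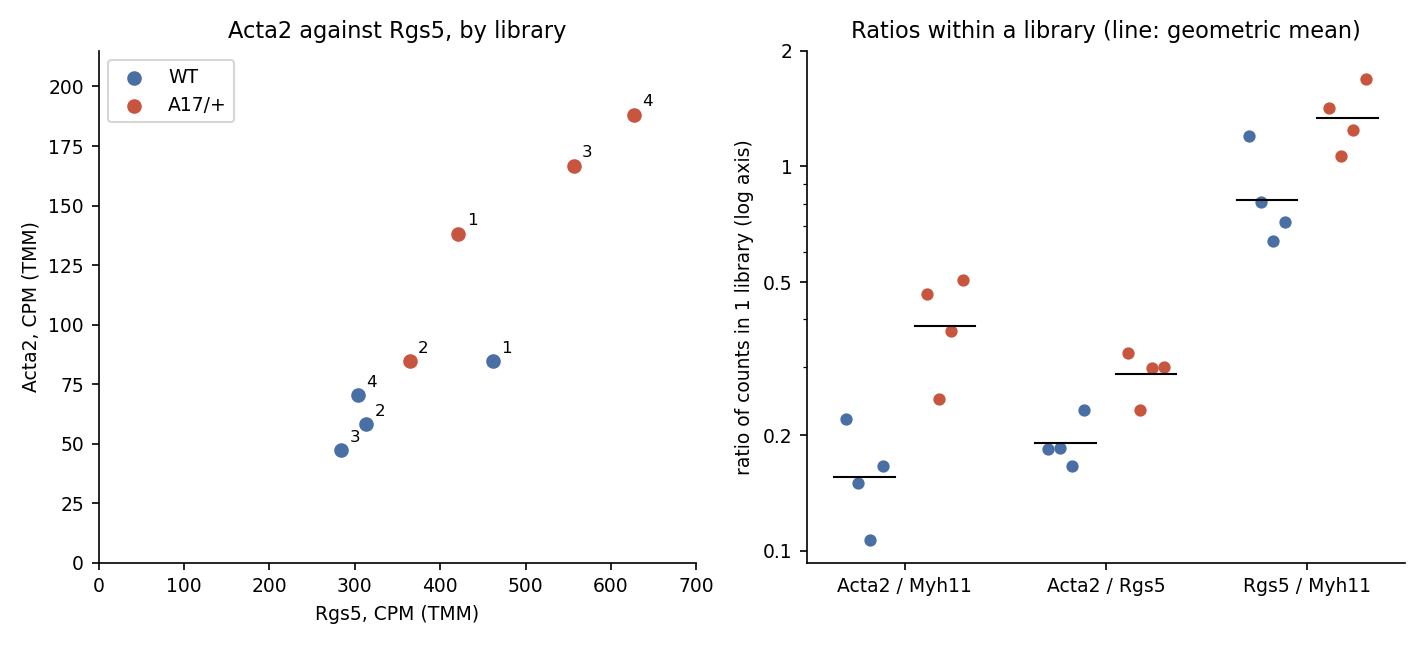
Left, Acta2 against Rgs5 in CPM with TMM scaling, 1 point per library, blue for WT and red for A17/+. Right, ratios of counts within a library on a log axis, with the geometric mean of each genotype as a line (n = 4). The 8 points on the left lie near a rising line with WT 1 to its right, and on the right the Acta2 to Myh11 ratio is higher in each A17/+ library than in each WT library.

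The genes whose level followed each member most closely were named by the highest Pearson r of log2 CPM over the 8 libraries among 4978 compared. For Acta2 these were Plpp3 (0.984), Scn4b (0.980) and Selenof (0.971). For Rgs5 they were Iars2 (0.981), Dele1 (0.978) and Foxn3 (0.959), and for Myl9 they were Klhl40 (0.952), Dpt (0.950) and Fars2 (0.936). For Myh11 they were Inpp5a (0.941), Sostdc1 (0.889) and Jag1 (0.871). For Mylk they were Zfp169 (0.909), Pogz (0.891) and Thap2 (0.882), and for Pdgfrb they were Gja1 (0.925), Dram2 (0.897) and Rab2a (0.886). No other member stood among the 3 genes nearest to any member. Each of these is the highest of 4978 values over 8 points and is a description only.

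The apparatus around the members was read from lists of related genes. Of 22 other smooth muscle contractile and cytoskeletal genes, 13 were tested, 4 were higher and 0 lower, with a median log2 fold change of 0.60. Over all tested genes, 6.34% were called higher and 2.61% lower. An unadjusted p under 0.05 by edgeR was reached by 7, against 1273 of all 5066 tested genes. The 4 called higher were the tropomyosins Tpm2 (1323 ± 226 to 2444 ± 246 CPM, adjusted p 0.00486 by edgeR) and Tpm1 (990 ± 263 to 1905 ± 296, 0.00822), the intermediate filament Des (371 ± 124 to 931 ± 282, 0.00796) and the transgelin relative Tagln2 (19.6 ± 6.08 to 59.9 ± 31.3, 0.0266). Tpm1, Tpm2 and Des are also made by striated muscle, which fills most of the tongue. Genes nearer to smooth muscle alone were scarce, with 24 UMIs over the 8 libraries for the enteric actin Actg2 and 44 for the actin nucleator Lmod1, both below the count filter. Smtn, which encodes smoothelin, had a log2 fold change of 0.97 and an adjusted p of 0.0742. The other tested genes of this list did not pass either. Tpm4, Flna and Cald1 stood at -0.44, -0.10 and -0.05. Pdlim3, Vcl, Synpo2, Cnn2 and Cnn3 stood at 0.12, 0.145, 0.35, 0.60 and 0.82.

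Of 21 genes around the phosphorylation of the myosin light chain, 16 were tested, 4 were higher and 0 lower, with a median log2 fold change of 0.09. The shares over all tested genes were 6.34% higher and 2.61% lower. An unadjusted p under 0.05 by edgeR was reached by 7, against 1273 of all 5066 tested genes. Among the 7, Mylk2 (log2 fold change 0.94), Rock1 (-0.56) and Myh9 (-0.49) did not pass after adjustment (adjusted p 0.0630, 0.112 and 0.120). Among the 4 called higher were Calm2 and Calm3, which encode calmodulin, the activator of Mylk and of many other enzymes, and Myl12a, which encodes a light chain of non-muscle myosin. Calm2 rose from 52.7 ± 9.54 to 119 ± 24.2 CPM (edgeR adjusted p 0.00884), Calm3 from 18.2 ± 5.95 to 45.1 ± 10.4 (0.0367) and Myl12a from 22.7 ± 9.79 to 87.0 ± 49.0 (0.0291). Ppp1r12a and Ppp1r12b, subunits of the phosphatase that takes the phosphate off again, had log2 fold changes of -0.10 and 0.08 (adjusted p 0.752 and 0.799).

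Of 18 genes of SRF, myocardin and TGF-beta input, 7 were tested and none passed in either direction at the adjusted threshold of edgeR, nor at an unadjusted p of 0.05. The median log2 fold change was -0.09. Srf had 17 and Myocd 3 UMIs over all libraries, too few for the test. Klf4, a repressor of the smooth muscle programme, had means of 190 ± 53.0 in WT and 123 ± 60.1 CPM in A17/+ (log2 fold change -0.65, adjusted p 0.208), and Ccn2, a target of TGF-beta, had 300.1 ± 106 and 210 ± 57.1 (-0.50, 0.236). Whole-tissue RNA does not show which cells of the tongue made Klf4 or Ccn2, so these values are not a reading of smooth muscle alone.

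Of 16 other pericyte genes, 15 were in the table, 3 were tested and none passed, nor at an unadjusted p of 0.05. Abcc9, a channel subunit of pericytes that muscle also makes, had 342 ± 28.7 and 403 ± 39.2 CPM (log2 fold change 0.24, edgeR adjusted p 0.368), and Steap4 had a log2 fold change of 0.18. Cspg4, the remaining tested gene of the list, had 95 UMIs over the 8 libraries and a log2 fold change of 0.13 (edgeR adjusted p 0.872). The markers Notch3, Kcnj8 and Higd1b had 62, 54 and 7 UMIs and stayed below the filter. Summed over the list, pericyte genes ran from 470.4 to 564 CPM in WT and from 576 to 653 in A17/+. Most of that sum is Abcc9, whose values overlapped between the genotypes. Of the PDGF ligands none was tested, and the related receptor Pdgfra had a log2 fold change of 0.11 (adjusted p 0.823). None of the 9 other G protein signalling regulators in the table had enough counts to stand beside Rgs5.

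Markers of other cells moved with the genotype in part, beside 6.34% of all tested genes called higher and 2.61% called lower. Of 9 fibroblast markers, all tested, 4 were higher, among them Dcn (79.4 ± 27.6 to 386 ± 182 CPM, edgeR adjusted p 0.0123) and Col3a1 (adjusted p 0.0129). The median log2 fold change of the 9 was 0.615. Col1a2, Dpt, Col1a1, Pdgfra and Lum stood at 0.615, 0.51, 0.34, 0.11 and 0.09 and did not pass. The sum of the 9 ran from 1147 to 1480 CPM in WT and from 1549 to 2638 in A17/+. Of 8 skeletal muscle markers 4 were higher, with sums of 76250 to 104700 and 98340 to 117500 CPM and a median log2 fold change of 0.58. Myh1, Myh2, Ttn and Myh4 stood at 0.52, 0.43, 0.13 and -0.009 and did not pass. Of 10 endothelial markers 7 were tested and none passed, nor at an unadjusted p of 0.05, with sums of 559 to 607 and 606 to 666 CPM and a median log2 fold change of 0.25. Of 8 tongue epithelium markers, 2 were lower, Dsp and Perp, and 0 higher, with sums of 14030 to 15450 and 10010 to 18790 CPM. Their median log2 fold change was 0.16. Krt5, Krt13, Krt4 and Krt6a stood at 0.81, 0.68, 0.38 and 0.34, and Krt16 and Krt14 at -0.03 and -0.43, none past the threshold. The part of these cells in the Acta2 and Rgs5 values was not tested.

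Acta2 kept a positive difference and Rgs5 a smaller positive one under each way of processing that was tried, as the plot of both genes by alternative shows. The log2 fold change ran from 0.85 to 1.34 for Acta2, with 16 of 22 alternatives past the threshold, and from 0.36 to 0.78 for Rgs5, with 3 of 22 past it.

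**Figure D4:**
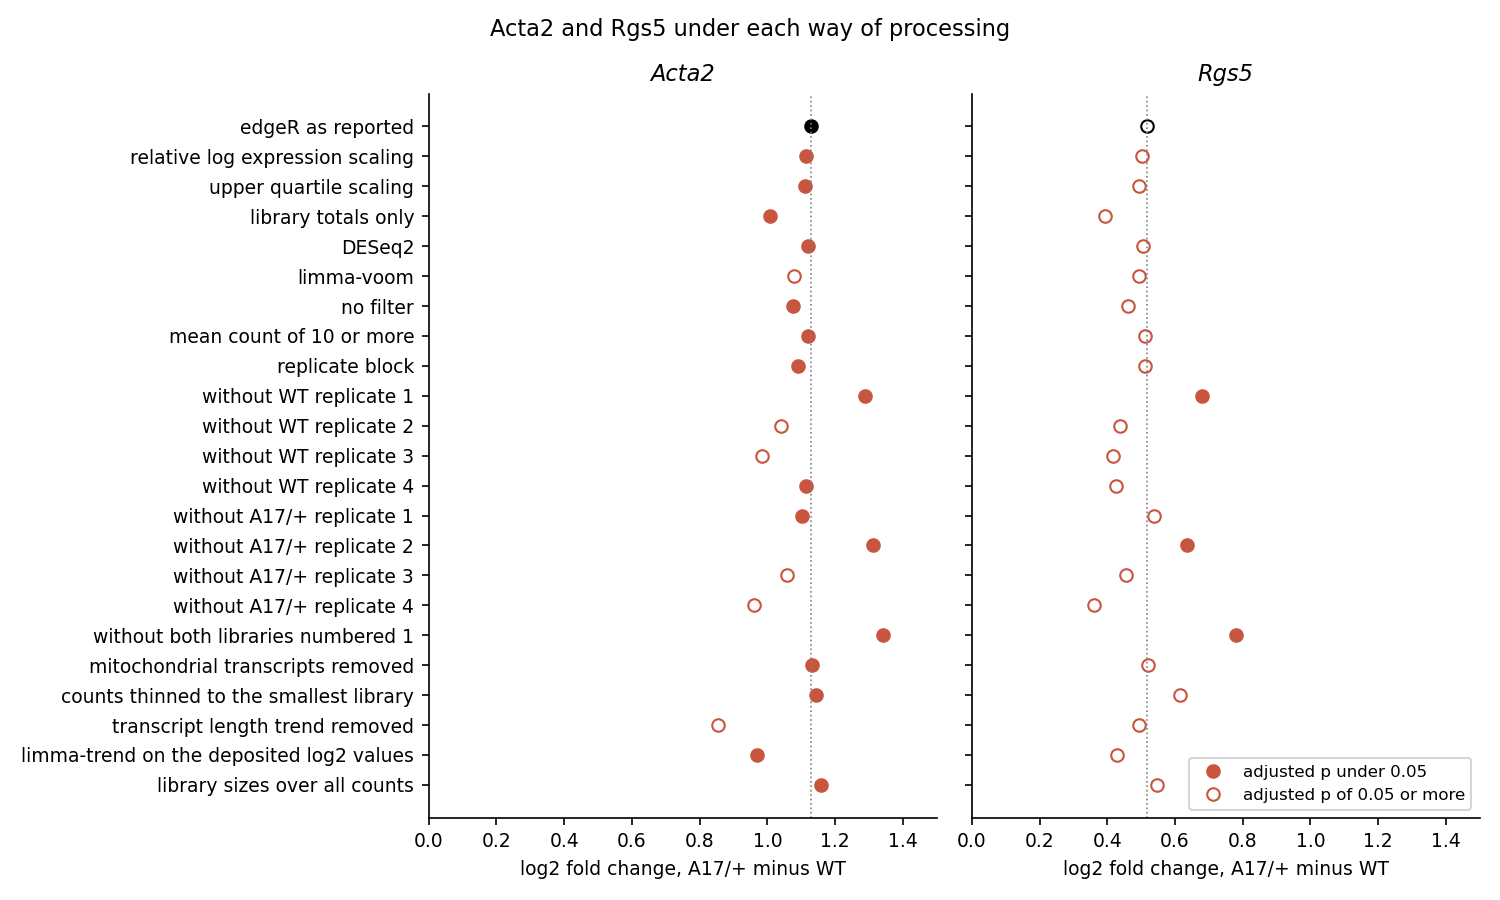
Log2 fold change of Acta2 (left) and Rgs5 (right), A17/+ against WT, as reported (black) and under each of 22 alternatives (red); the dotted line marks the reported value. Filled points have an adjusted p under 0.05. All points lie above 0, and the filled ones for Rgs5 are those without WT 1, without A17/+ 2 and without both libraries numbered 1.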

How the data were processed

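RNA was measured in 8 tongue libraries, 4 WT and 4 A17/+. Per the submitters' processing notes reads were processed with HTSeq (version not given), STAR 2.7.5a, cutadapt 2.10 and UMI-tools 1.1.1, on build mm10; strand and annotation release are not given in the sources used here. The authors deposited raw UMI counts per Ensembl gene, which were analysed, and log2 values for 10709 genes per library, which served as an alternative. GENCODE for mm10 gave symbols to 19675 of 19857 genes. filterByExpr (minimum count 10, minimum total 15) left 5066 genes, fitted with TMM scaling and the robust quasi-likelihood test of edgeR 4.0.16 (R 4.3.3), genotype as the only term, Benjamini-Hochberg adjustment. Members below the filter had a two-sided exact permutation test. The fit was tested on simulated data. Relations between members were described with log2 CPM (prior count 2). Alternatives used other scalings, filters, DESeq2 1.42.0, limma 3.58.1, a replicate block, thinned counts, a transcript length trend and left-out libraries. The members and lists were chosen with earlier results of these data known. Named genes are the members, up to 4 passing genes per list with the smallest p (or 2 as values), and the 3 nearest patterns per member. Smtn and the other tested contractile genes, Mylk2, Rock1, Myh9, the Ppp1r12 genes and the keratins were chosen after their values were seen. Cspg4 and the fibroblast and skeletal muscle markers that did not pass were also chosen then. So were the genes named by their UMI count. A gene that the rule named is not reported here. Library totals of 205696 to 485326 UMIs leave genes such as Tagln with a few molecules per library.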

Additional observations from a re-analysis of the deposited data

Results flagged for a closer look

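In 6 of the 99 groups of 4 values examined, 1 library stood far from the other 3, where chance gives about 1 in 20. Rgs5 was at 461 CPM in WT 1 and between 284 and 314 in the other WT libraries. Gsn, a fibroblast marker, was also highest in WT 1, at 562 CPM against 420 to 443. Myl12a was at 37.2 CPM in WT 3 against 16.2 to 19.4, and Tek, an endothelial receptor, was at 157 CPM in WT 4 against 108 to 114. In A17/+ 1 there were 22.2 Myh11 UMIs per Myl9 UMI against 9.29 to 10.8 in the other A17/+ libraries, and Mylpf, a skeletal muscle light chain, was lowest there, at 1398 CPM against 2173 to 2327.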

How the results depend on the processing

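The number of members called higher, 1 as reported, was 0 with limma-voom and with the transcript length trend removed, 2 without both libraries numbered 1, and 0 to 2 when each library was left out in turn (0 without WT 2, WT 3, A17/+ 3 or A17/+ 4). No member was called lower under any alternative. Of the related smooth muscle, pericyte and signalling genes, 8 were called higher; this was 4 with limma-voom, 5 with counts thinned to the smallest library, 5 with the length trend removed, and 4 to 10 when each library was left out. None was called lower, against 1 with library totals only, 2 without both libraries numbered 1, 1 with the length trend removed and 0 to 3 when each was left out. Over all genes, 321 higher calls became 152 with limma-voom, 615 with no filter, 695 without both libraries numbered 1, 569 with limma-trend on the deposited values, and 172 to 586 when each library was left out. The 132 lower calls became 289 with library totals only, 81 with limma-voom, 238 with no filter, 330 without both libraries numbered 1, 251 with the length trend removed, 239 with limma-trend, and 38 to 383 when each library was left out. Higher genes were 70.9% of the calls as reported, 49.1% with library totals only and 49.2% with the length trend removed. Pdgfrb, 0.10 as reported, turned to -0.025 with library totals only and ran from -0.031 to 0.226 when each library was left out. The causes were not tested. The replicate numbers do not pair the animals in the labels, and same-numbered libraries deviated together with r of 0.00, 0.07, -0.10 and -0.16; with the replicate number as a block 1 member (Acta2, 1.09, edgeR adjusted p 0.0253) and 7 related genes were called higher. Myh11 and Mylk kept their sign in all 22 alternatives and Myl9 in the 20 in which it was tested, and none of the 3 passed in any of these. Depth limits Tagln, Cnn1 and Myl9.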

Other observations

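Salivary gland and red cell genes differed between single tongues. The 6 salivary gland markers, none with enough counts for the test, summed to 0 to 2057 CPM in WT, highest in WT 1, and to 14.1 to 57.0 CPM in A17/+. The 4 red cell markers summed to 8.92 to 32.3 CPM in WT and to 75.8 to 1305 CPM in A17/+, and Hbb-bs, a beta globin and the 1 of them tested, was higher in A17/+ (edgeR log2 fold change 5.24, adjusted p 0.0215).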
